A study of Mus musculus with 12 samples.

Results

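The mesothelium is the single sheet of flat cells that covers the lung surface as the visceral pleura. Its expression was followed here through 6 genes, *Wt1*, *Msln*, *Upk3b*, *Upk1b*, *Lrrn4* and *Krt19*, which were taken by symbol from the deposited tables, and all 6 were found among the 16152 genes of the count table. RNAseq was performed on the whole lung of C57BL/6 mice, males and females, with no mutation or treatment, at 4 time-points: embryonic days E15.5 and E18.5 and postnatal days P5 and P8. There were 3 replicates per time-point, 12 libraries in all, and each time-point was 1 litter, whose difference from the other litters cannot be told apart from age. The p-values therefore measure the spread between lungs of the same litter, estimated over the 4 time-points together, and not the spread between litters. Whole lung holds every cell type of the organ, and a lower level of these genes through fewer mesothelial cells cannot be told apart from one through less RNA per cell.

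Mesothelial cells line the pleural, pericardial and peritoneal cavities, make the lubricating fluid between the moving surfaces and, in the embryonic lung, signal to the mesenchyme under them and give rise to part of it. They are epithelial in shape, with keratins and apical membrane proteins, but they derive from mesoderm, and they keep transcription factors of that origin. *Wt1* (ENSMUSG00000016458) encodes the zinc finger transcription factor of the embryonic mesothelium. *Msln* (ENSMUSG00000063011) encodes mesothelin, a surface glycoprotein that binds the mucin encoded by *Muc16*. *Upk3b* (ENSMUSG00000042985) and *Upk1b* (ENSMUSG00000049436) encode uroplakins, membrane proteins first known from the bladder lining, the latter a tetraspanin. *Lrrn4* (ENSMUSG00000043110) encodes a membrane protein with leucine-rich repeats, and *Krt19* (ENSMUSG00000020911) a type I keratin filament protein that lung epithelial cells also make.

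All 6 genes are protein coding and share no exon base with another gene in the GENCODE vM21 annotation of GRCm38, the build that mm10 names. *Wt1* lies at chr2:105126529-105173616 on the plus strand, with 10 merged exons of 6.195 kb in total, and *Lrrn4* on the same chromosome at chr2:132868305-132880891 on the minus strand, with 5 merged exons of 3.715 kb. *Msln* lies at chr17:25748613-25754378 on the minus strand (15 merged exons, 3.064 kb) and *Krt19* at chr11:100140810-100148665 on the minus strand (8 merged exons, 1.855 kb). The uroplakin genes are at chr5:136038496-136046487 on the plus strand for *Upk3b* (6 merged exons, 3.53 kb) and at chr16:38773184-38800328 on the minus strand for *Upk1b* (8 merged exons, 2.089 kb).

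*Upk3b* and *Lrrn4* were the pair whose levels ran most nearly in parallel over the libraries, and they were also the 2 of the 6 genes with a promoter in the RefSeq sequences of GRCm38.p6. Both promoters are shown for that reason, from 250 bases before the RefSeq start of the gene to 50 bases after it. They are read along the gene from chr2:132880813-132881112 for *Lrrn4* (minus strand) and from chr5:136038246-136038545 for *Upk3b* (plus strand). For *Lrrn4* the RefSeq start differs from the GENCODE start given above, and positions below count from the RefSeq start. Capitals mark the core of the site of TEAD factors, GGAATG or its reverse complement CATTCC.
Lrrn4: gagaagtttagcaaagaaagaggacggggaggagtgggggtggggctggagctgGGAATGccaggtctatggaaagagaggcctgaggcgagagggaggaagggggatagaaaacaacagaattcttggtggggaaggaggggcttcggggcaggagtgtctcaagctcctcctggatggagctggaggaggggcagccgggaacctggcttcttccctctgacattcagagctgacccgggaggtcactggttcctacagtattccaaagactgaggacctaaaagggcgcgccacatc
Upk3b: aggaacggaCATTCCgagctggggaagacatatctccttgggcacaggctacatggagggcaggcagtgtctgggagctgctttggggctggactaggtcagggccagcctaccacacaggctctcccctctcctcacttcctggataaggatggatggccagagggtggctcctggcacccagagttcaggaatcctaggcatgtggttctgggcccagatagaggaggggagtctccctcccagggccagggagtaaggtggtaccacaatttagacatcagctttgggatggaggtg
The TEAD core occurred once in each, at position -196 from the start, on the strand of the gene, in *Lrrn4* and at -241, on the opposite strand, in *Upk3b*. It was present in 14.7% of the 32851 promoters of this length. Neither promoter held the WT1 core GTGGGAG, found in 9.73% of promoters, or the TATA box TATAAA, found in 13.6%, on either strand.

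Between 41337443 and 53901957 reads were counted per library. Levels are given as CPM, the reads of a gene scaled to one fixed total of mapped reads per library. Changes are given as log2 fold changes (log2FC) with their standard error (SE). A gene was called differentially expressed when its level changed more than 2-fold in either direction, at a false discovery rate (FDR) under 0.05 in edgeR's quasi-likelihood test of 15994 genes, those at 1 CPM or more in 3 or more libraries. RNA of neighbouring organs was uneven between replicates, and each of the following values is the summed CPM of a marker list. Heart muscle genes (6 listed) reached 949.7 and 1180.4 in E15.5 replicates 1 and 2 and 57.7 in replicate 3, beside 60.7 to 324 in the 9 later libraries. Thymus genes (10 listed) were at 225 and 427 in P8 replicates 1 and 2 and at 23.0 in replicate 3, beside 13.5 or more in each P5 library, and mediastinal fat genes (5 listed) at 358, 729 and 14.9 beside 0.771 to 131 at P5. Skeletal muscle genes (6 listed) were highest in P8 replicates 1 and 2, at 530.2 and 141, and in P5 replicate 3, at 163, where fat genes also stood at 131. Liver genes (4 listed) were at 12.4, 114 and 39.1 in the 3 P8 libraries and at 0.555 to 3.50 in all 9 others. Heart and liver carry a mesothelium of their own and the chest wall is lined by one. The part of this RNA in the values below was not tested. Some values are also given without replicates 1 and 2 of E15.5 or of P8. They rest on 1 library of that time-point, which can still hold such RNA, and so cannot measure that part.

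**Figure D1:**
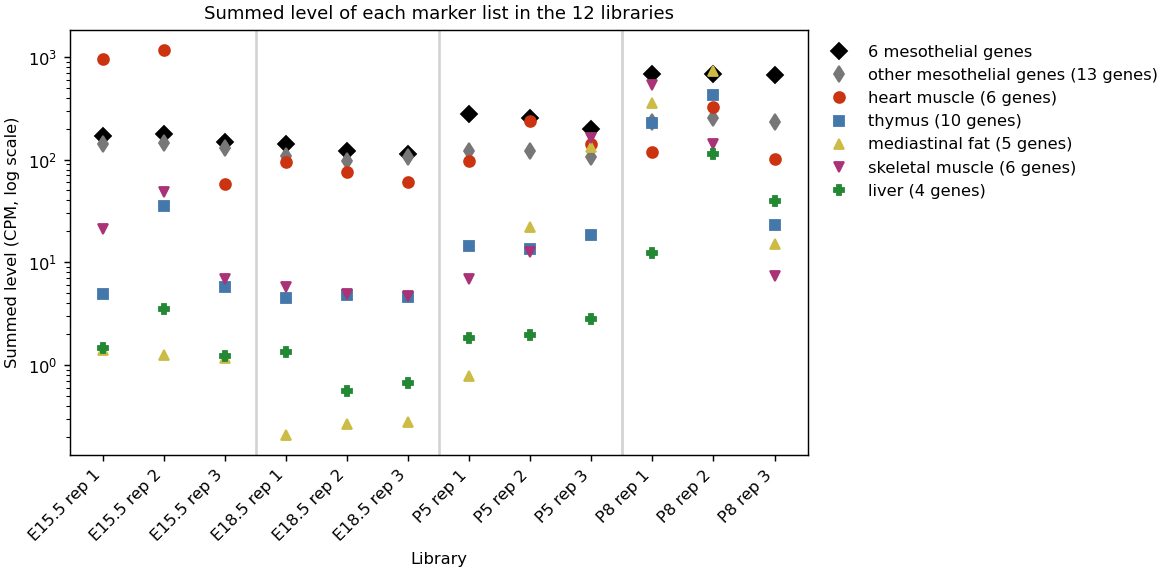
Summed CPM (log scale) of the 6 mesothelial genes, the 13 other mesothelial genes and the marker lists of heart muscle, thymus, mediastinal fat, skeletal muscle and liver in each of the 12 libraries. The 6 mesothelial genes summed to 673 to 689 CPM in all 3 P8 libraries, and thymus and fat genes were at 225 or more in P8 replicates 1 and 2 only. Within that sum the genes differed. In P8 replicate 3, *Msln* and *Upk3b* were at their highest of the time-point, *Wt1*, *Upk1b* and *Krt19* at their lowest and *Lrrn4* between.

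*Wt1*, the transcription factor, was at 11.99, 14.5 and 8.54 CPM at E15.5, at 4.27, 4.75 and 5.62 at E18.5, at 2.60, 2.003 and 1.56 at P5 and at 6.61, 7.53 and 6.57 at P8. The libraries of any pair of time-points did not overlap, with E15.5 highest, P8 next and P5 lowest. It was the only one of the 6 genes whose mean was highest before birth.

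*Msln*, for mesothelin, was at 4.70, 5.58 and 1.20 CPM at E15.5 and at 5.83, 5.61 and 3.20 at E18.5, which overlapped. It was at 106, 92.2 and 65.5 CPM at P5 and at 270.4, 265 and 304 CPM at P8. Every P5 library was above every embryonic library, and every P8 library above every P5 library.

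The uroplakin gene *Upk3b* was at 68.4, 74.9 and 58.2 CPM at E15.5, at 37.7, 31.0 and 36.5 at E18.5, at 53.2, 46.8 and 31.9 at P5 and at 129.6, 138 and 145 at P8. E18.5 was below E15.5 in every library, P5 overlapped E18.5, and P8 was above all other libraries. *Upk1b* was at 10.6, 10.5 and 9.09 CPM at E15.5, at 7.96, 4.42 and 6.72 at E18.5, at 34.2, 31.0 and 27.0 at P5 and at 82.4, 74.9 and 55.3 at P8. Its 4 time-points did not overlap, and both postnatal time-points were above both embryonic ones.

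*Lrrn4* was at 13.8, 12.8 and 9.46 CPM at E15.5, at 5.75, 3.85 and 6.39 at E18.5, at 10.4, 9.29 and 6.33 at P5 and at 35.1, 39.6 and 35.5 at P8. As for *Upk3b*, P5 overlapped E18.5 through its replicate 3, and P8 was above every other library. The keratin gene *Krt19* was at 61.9, 60.4 and 61.3 CPM at E15.5, at 79.5, 71.1 and 56.1 at E18.5, at 70.0, 75.3 and 65.1 at P5 and at 158, 164 and 126 at P8. Its libraries at the first 3 time-points lay between 56.1 and 79.5 CPM, with E18.5 overlapping both neighbours, and all P8 libraries were above them.

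**Figure D2:**
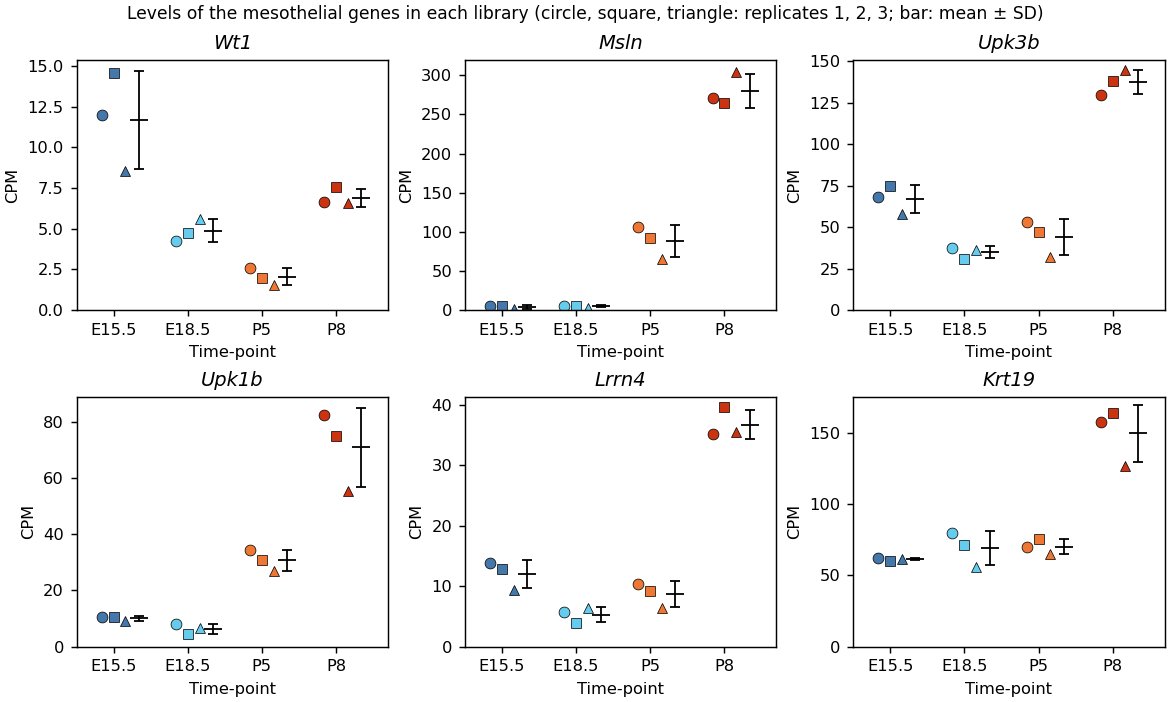
CPM of each of the 6 mesothelial genes (1 panel each, axis from 0) by time-point, with a point for each of the 3 replicates and a bar for the mean ± SD. All 6 genes were higher in every P8 library than in every P5 library, and *Wt1* alone had its highest mean, 11.7 CPM, at E15.5.

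Levels of different genes were compared per kb of merged exons, a length that can exceed that of a single transcript. The lengths came from a later Gencode release than the one used for counting, so the gene models can differ. At E15.5 the order was *Krt19* (33.0 CPM per kb), *Upk3b* (19.0), *Upk1b* (4.82), *Lrrn4* (3.24), *Wt1* (1.89) and *Msln* (1.25), and only the last pair overlapped between libraries. At E18.5 *Krt19* (37.1 CPM per kb) and *Upk3b* (9.93) again led, followed by *Upk1b* (3.05), *Msln* (1.59) and *Lrrn4* (1.43), of which the last pair overlapped, and by *Wt1* (0.788). *Msln* was then second at P5, with 28.7 CPM per kb after 37.8 for *Krt19*, without overlap. *Upk1b* (14.7 CPM per kb) and *Upk3b* (12.5) overlapped at P5, ahead of *Lrrn4* (2.34) and *Wt1* (0.332). At P8 *Msln* (91.3 CPM per kb) and *Krt19* (80.5) overlapped, as did *Upk3b* (38.9) and *Upk1b* (33.9), and *Lrrn4* (9.89) and *Wt1* (1.11) came last. *Wt1* was thus the lowest per kb of the 6 genes at each time-point except E15.5, where its libraries overlapped those of *Msln*.

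From P5 to P8, all 6 genes rose past both cutoffs, in a comparison in which 2.88% of all genes tested did so (2.96% in either direction). Their median log2FC was 1.63, against -0.0012 over all genes tested. *Lrrn4* rose most, from 8.68 ± 2.11 to 36.7 ± 2.46 CPM (SD, n = 3), a log2FC of 2.06 (SE 0.218, edgeR FDR = 0.00036). *Wt1* rose 3.30-fold, from 2.06 ± 0.522 to 6.90 ± 0.543 CPM (log2FC 1.72, SE 0.226, edgeR FDR = 0.0012). *Msln* rose 3.13-fold, from 88.0 ± 20.7 to 279.7 ± 21.5 CPM (log2FC 1.65, SE 0.330, edgeR FDR = 0.0076), and *Upk3b* 3.08-fold, from 44.0 ± 10.9 to 137 ± 7.50 CPM (log2FC 1.62, SE 0.164, edgeR FDR = 0.00036). *Upk1b* went from 30.7 ± 3.63 to 70.8 ± 14.0 CPM (log2FC 1.19, SE 0.193, edgeR FDR = 0.0033) and *Krt19* from 70.1 ± 5.13 to 149 ± 20.1 CPM (log2FC 1.07, SE 0.127, edgeR FDR = 0.00072), the smallest change of the 6. Every P8 library was above every P5 library for each of the 6 genes, an order that 20.8% of all genes showed. *Krt19* was at the fold cutoff, with a log2FC of 0.996 without P5 replicate 3.

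Of the marker lists, 8 of 9 thymus genes tested and all 4 liver genes also rose past both cutoffs from P5 to P8. P8 replicate 3, with far less thymus and fat RNA than the other P8 libraries, had the highest P8 values of *Msln* (304 CPM) and *Upk3b* (145 CPM) and a value of *Lrrn4* (35.5 CPM) between theirs. *Wt1* (6.57 CPM beside 6.61 and 7.53), *Upk1b* (55.3 CPM) and *Krt19* (126 CPM) were lowest there. All 6 genes and 10 of the 13 other mesothelial genes described next were higher in this library than in every P5 library, as were 37.6% of all genes tested. With both other P8 libraries left out, the lone library is assumed to vary like those of the other time-points, and 3 of the 6 genes kept the call, where 0.292% of all genes rose past both cutoffs. These were *Lrrn4* (log2FC 1.998, edgeR FDR = 0.015), *Upk3b* (1.68, edgeR FDR = 0.014) and *Wt1* (1.64, edgeR FDR = 0.036). *Msln* had a log2FC of 1.76 (edgeR FDR = 0.079), *Krt19* 0.82 (edgeR FDR = 0.036) and *Upk1b* 0.81 (edgeR FDR = 0.11). Liver RNA was higher in all 3 P8 libraries than in any P5 library, and its part in the P8 values was not tested.

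Other genes of the mesothelium also rose in this interval. Of 13 listed genes, all tested, 8 rose past both cutoffs from P5 to P8, none fell, and the median log2FC was 1.36. *Pkhd1l1*, for a large membrane protein, had the largest log2FC, 2.24 (2.95 to 14.2 CPM, SE 0.307, edgeR FDR = 0.0014). *Bnc1*, for the zinc finger protein basonuclin, followed with 2.05 (2.02 to 8.61 CPM, SE 0.362, edgeR FDR = 0.0047). *Cldn15*, for a claudin of tight junctions, rose by 1.54 on the log2 scale (5.29 to 15.6 CPM, edgeR FDR = 0.00036), and *Aldh1a2*, for an enzyme that makes retinoic acid, by 1.51 (13.03 to 37.9 CPM, edgeR FDR = 0.00069). The other 4 genes that rose, with log2FC of 1.19 to 1.49, were *Muc16*, which encodes the partner of mesothelin, *Gpm6a*, *Rspo1* and *Dmkn*. The 5 genes that did not pass had log2FC of -0.15 for *Nkain4* (edgeR FDR = 0.16), 0.74 for *Anxa8* (edgeR FDR = 0.11), 0.76 for *Calb2* (edgeR FDR = 0.35), 0.88 for *Prr15* (edgeR FDR = 0.12) and 1.38 for *Tm4sf5* (edgeR FDR = 0.054). Without P8 replicates 1 and 2, 5 of the 12 listed genes then tested rose past both cutoffs.

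Of the 3 uroplakin genes outside the 6, the 2 in the count table did not pass the test from P5 to P8. *Upk1a* had a log2FC of 0.01 (edgeR FDR = 0.99) and *Upk3a* of -0.23 (edgeR FDR = 0.71). Across birth both had risen past both cutoffs (log2FC 1.97 and 1.60). *Upk2*, whose reads are in the CPM table alone, was not tested. It was at 0.321, 0.516 and 0.362 CPM at P5 and at 3.12, 2.58 and 0.838 CPM at P8, so that every P8 library was above every P5 library, and it was lowest in the P8 library with the least thymus and fat RNA. Among 10 markers of the lung epithelium, a tissue that also makes *Krt19*, none passed both cutoffs from P5 to P8. The list includes the keratin genes *Krt7*, *Krt8* and *Krt18*, and mesothelial cells have keratins too, so these do not mark the epithelium alone. By the FDR alone 7 were higher. The share of all genes that were so in this interval is not given here, so this count cannot be set against it. The median log2FC of the 10 was 0.29, against -0.0012 over all genes tested. For 8 of the 10 every P8 library was above every P5 library, as for 20.8% of all genes. *Krt18*, the keratin gene with the largest change among the 10 markers, went from 50.6 to 89.9 CPM (log2FC 0.81, edgeR FDR = 0.0021). *Krt8* went from 107 to 151 CPM (0.48, edgeR FDR = 0.01). The part of epithelial cells in the *Krt19* values was not tested.

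From E15.5 to E18.5, 2 of the 6 genes fell past both cutoffs and none rose, against 1.46% of all genes that fell and 3.04% called in either direction. *Wt1* fell from 11.7 ± 3.01 to 4.88 ± 0.686 CPM (log2FC -1.25, SE 0.219, edgeR FDR = 0.003) and *Lrrn4* from 12.03 ± 2.28 to 5.33 ± 1.32 CPM (log2FC -1.17, SE 0.218, edgeR FDR = 0.0041). *Upk3b*, from 67.2 ± 8.39 to 35.1 ± 3.60 CPM, and *Upk1b*, from 10.1 ± 0.847 to 6.37 ± 1.80 CPM, were lower by the FDR but not by the fold (log2FC -0.93 and -0.65, SE 0.163 and 0.207, edgeR FDR = 0.003 and 0.042). For these 4 genes every E18.5 library was below every E15.5 library, an order shown by 19.8% of all genes. *Msln* (3.83 ± 2.32 and 4.88 ± 1.46 CPM) and *Krt19* (61.2 ± 0.757 and 68.9 ± 11.9 CPM) overlapped, with log2FC of 0.35 (edgeR FDR = 0.57) and 0.18 (edgeR FDR = 0.34).

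Of the 6 heart muscle genes, 5 also fell past both cutoffs in this interval. The 2 E15.5 libraries with heart muscle RNA were also those with the higher levels of 5 of the 6 genes, *Krt19* being the exception. The heart is covered by the epicardium, a mesothelium that expresses *Wt1*. E15.5 replicate 3, which had no such excess of heart RNA, still lay above all 3 E18.5 libraries for *Wt1*, *Upk3b*, *Upk1b* and *Lrrn4* and for 8 of the 13 other mesothelial genes, as did 32.3% of all genes tested. With replicates 1 and 2 left out, *Wt1* and *Lrrn4* had log2FC of -0.81 (edgeR FDR = 0.11) and -0.83 (edgeR FDR = 0.12), and *Upk3b* of -0.74 (edgeR FDR = 0.087), so that none of the 6 was called lower. *Msln*, at 1.20 CPM in replicate 3, was then called higher at E18.5 (log2FC 2.01, edgeR FDR = 0.04). The call of *Lrrn4* also ended without E18.5 replicate 2 (log2FC -0.98, edgeR FDR = 0.017).

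Of the 13 other mesothelial genes, *Bnc1* (log2FC -1.27, edgeR FDR = 0.026) and *Pkhd1l1* (-1.21, edgeR FDR = 0.022) fell past both cutoffs from E15.5 to E18.5, none rose, and 6 were lower by the FDR alone, which 9.87% of all genes were. The median log2FC of the list was -0.45, that of the 6 genes -0.79 and that of all genes -0.0084. Without E15.5 replicates 1 and 2 none of the 12 listed genes then tested was called by edgeR in this interval, and 5 had an unadjusted p under 0.05, as did 22.6% of all genes.

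Across birth, from E18.5 to P5, the 6 genes took separate courses, in a comparison in which 26.8% of all genes were called (17.5% higher and 9.34% lower). *Msln* rose 19.2-fold, from 4.88 ± 1.46 to 88.0 ± 20.7 CPM (log2FC 4.27, SE 0.388, edgeR FDR = 8.1e-07). *Upk1b* rose 5.13-fold, from 6.37 ± 1.80 to 30.7 ± 3.63 CPM (log2FC 2.36, SE 0.208, edgeR FDR = 6.4e-07). *Wt1* fell 2.22-fold, from 4.88 ± 0.686 to 2.06 ± 0.522 CPM (log2FC -1.15, SE 0.225, edgeR FDR = 0.00055), and its log2FC was -0.97 without P5 replicate 3. *Lrrn4* and *Upk3b* were higher by the FDR but not by the fold, with overlapping libraries (log2FC 0.79 and 0.42, edgeR FDR = 0.0057 and 0.035), and *Krt19* did not pass (log2FC 0.11, edgeR FDR = 0.45). By the FDR alone 35.4% of all genes were higher in this comparison. Every P5 library was above every E18.5 library for *Msln* and *Upk1b*, as for 34.4% of all genes, and below every one for *Wt1*, as for 42.6%.

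The other mesothelial genes were likewise divided across birth, with 4 of 13 called higher and 1 lower. *Dmkn*, for the secreted protein dermokine, rose from 0.781 to 6.39 CPM (log2FC 3.12, edgeR FDR = 1.7e-07) and *Anxa8*, for an annexin, from 4.50 to 20.4 CPM (log2FC 2.27, edgeR FDR = 4.6e-05). *Pkhd1l1* rose by 1.98 and *Muc16* by 1.04 on the log2 scale (edgeR FDR = 0.00015 and 0.021). *Calb2*, for the calcium-binding protein calretinin that is used to stain mesothelium, fell from 9.03 to 0.123 CPM (log2FC -6.04, SE 0.464, edgeR FDR = 1.9e-07). It lay between 8.42 and 9.66 CPM in the 6 embryonic libraries and between 0.033 and 0.308 in the 6 postnatal ones, so that this common marker of mesothelium was near 0 after birth. *Nkain4* lay between 28.2 and 35.8 CPM in all 12 libraries and was called in no comparison between time-points.

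**Figure D3:**
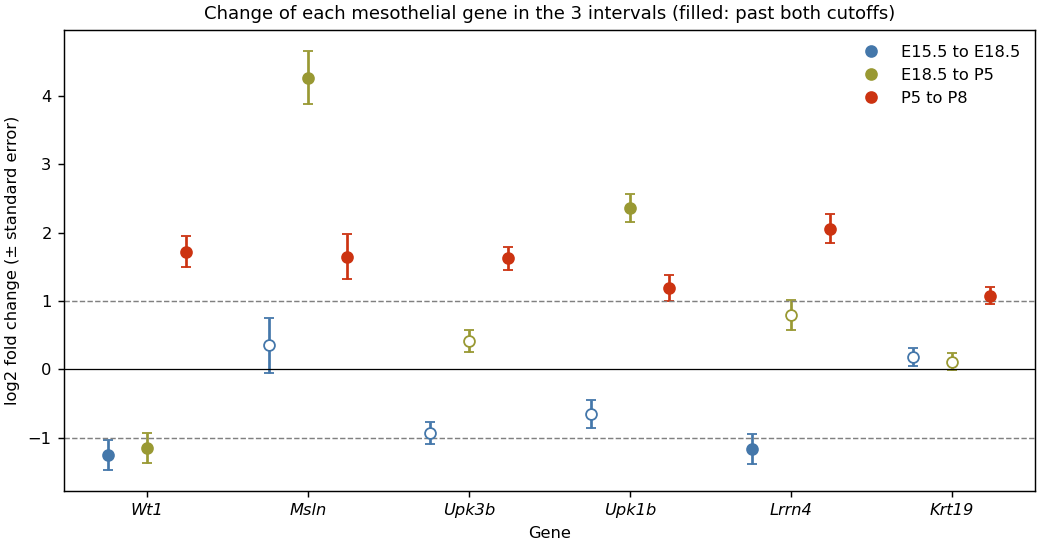
Log2FC ± SE of each of the 6 mesothelial genes from E15.5 to E18.5, E18.5 to P5 and P5 to P8, with dashed lines at the fold cutoffs and filled points for genes past both cutoffs. From P5 to P8 the 6 points lie between 1.07 and 2.06, while across birth they spread from -1.15 for *Wt1* to 4.27 for *Msln*.

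Over the whole period, from E15.5 to P8, 5 of the 6 genes were higher past both cutoffs, where 20.9% of all genes were (32.3% called in either direction). *Msln* changed most, 76.7-fold (log2FC 6.26, SE 0.420, edgeR FDR = 3.8e-08), followed by *Upk1b* (2.89, SE 0.207, edgeR FDR = 6.8e-08), *Lrrn4* (1.69, SE 0.214, edgeR FDR = 1.3e-05), *Krt19* (1.36, SE 0.128, edgeR FDR = 7.7e-07) and *Upk3b* (1.11, SE 0.162, edgeR FDR = 4.2e-05). *Wt1* alone was lower at P8 than at E15.5, by the FDR but not by the fold (log2FC -0.68, SE 0.215, edgeR FDR = 0.012), as 38.7% of all genes were by the FDR alone. Without E15.5 replicates 1 and 2 its log2FC was -0.24 (edgeR FDR = 0.44). Of the 13 other mesothelial genes, 8 were called higher and 1, *Calb2*, lower over this period.

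The change from P5 to P8 was compared with that from E15.5 to E18.5 as a single contrast, since the intervals share no library. The difference passed the FDR threshold and was positive in 5 of the 6 genes, where 12.9% of all genes did so (26.3% in either direction). On the log2 scale it was 3.23 for *Lrrn4* (SE 0.307, edgeR FDR = 0.00019), 2.97 for *Wt1* (SE 0.314, edgeR FDR = 0.00027), 2.55 for *Upk3b* (SE 0.231, edgeR FDR = 0.00016), 1.84 for *Upk1b* (SE 0.283, edgeR FDR = 0.0014) and 0.90 for *Krt19* (SE 0.179, edgeR FDR = 0.0046). *Msln*, at 1.30 (SE 0.515), did not pass (edgeR FDR = 0.081), and without E15.5 replicates 1 and 2 its difference was -0.37 (edgeR FDR = 0.66). Without P8 replicates 1 and 2 the difference of *Krt19* was 0.63 (edgeR FDR = 0.068). In the 13 other mesothelial genes the difference was positive and past the FDR threshold for 7, led by *Pkhd1l1* (3.46, edgeR FDR = 0.0007) and *Bnc1* (3.32, edgeR FDR = 0.0014), and negative past it for none. *Wt1* and *Lrrn4* were past both cutoffs in each interval, lower in the first and higher in the second, which held for 34 genes, or 0.213% of those tested.

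**Figure D4:**
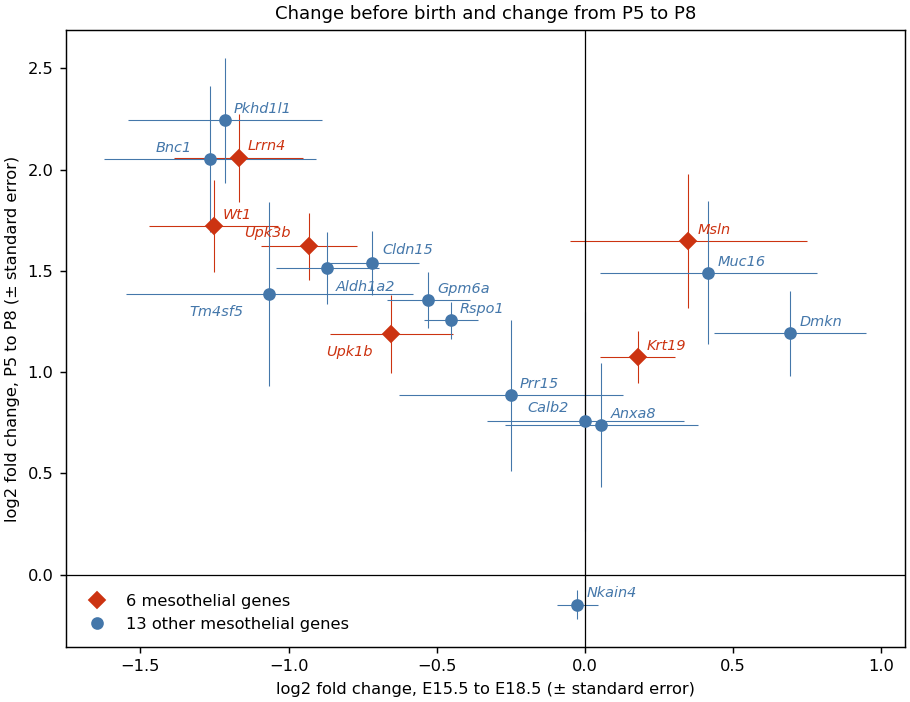
Log2FC from E15.5 to E18.5 (horizontal) against that from P5 to P8 (vertical), each ± SE, for the 6 mesothelial genes (diamonds) and the 13 other mesothelial genes (circles). *Wt1*, *Lrrn4*, *Bnc1* and *Pkhd1l1* lie at the upper left, past both cutoffs in both intervals, while *Nkain4* lies near 0 on both axes.

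The 6 genes fell into no single course over the 12 libraries. Correlations of their levels, which describe these libraries and share the 4 time-points as their main source of spread, ran from r = -0.330 for *Wt1* and *Msln* to r = 0.986 for *Upk3b* and *Lrrn4*, with a median of 0.749 over the 15 pairs and 13 of them positive. *Msln* and *Upk1b*, which rose across birth, were at r = 0.952, and *Wt1* was at 0.506 or less with each of the others. With the mean of each time-point removed, 14 of 15 pairs were positive, from -0.0651 for *Wt1* and *Krt19* to 0.876 for *Upk3b* and *Lrrn4*, with a median of 0.491.

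Single libraries thus tended to be high or low in several of these genes together. P5 replicate 3, the P5 library with the most fat and skeletal muscle RNA, was the lowest P5 library for all 6 genes, and P5 replicate 1 the highest for all but *Krt19*. E15.5 replicate 3 was the lowest of its time-point for all but *Krt19*, with *Msln* 1.67 below its time-point mean on the log2 scale. The mean deviation of the 13 other mesothelial genes correlated with that of the 6 genes at r = 0.971 over the 12 libraries. The same value was 0.553 for heart muscle, 0.344 for thymus, 0.131 for lung epithelium, 0.0491 for liver, -0.00784 for skeletal muscle, -0.177 for the other uroplakins and -0.22 for mediastinal fat.

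**Figure D5:**
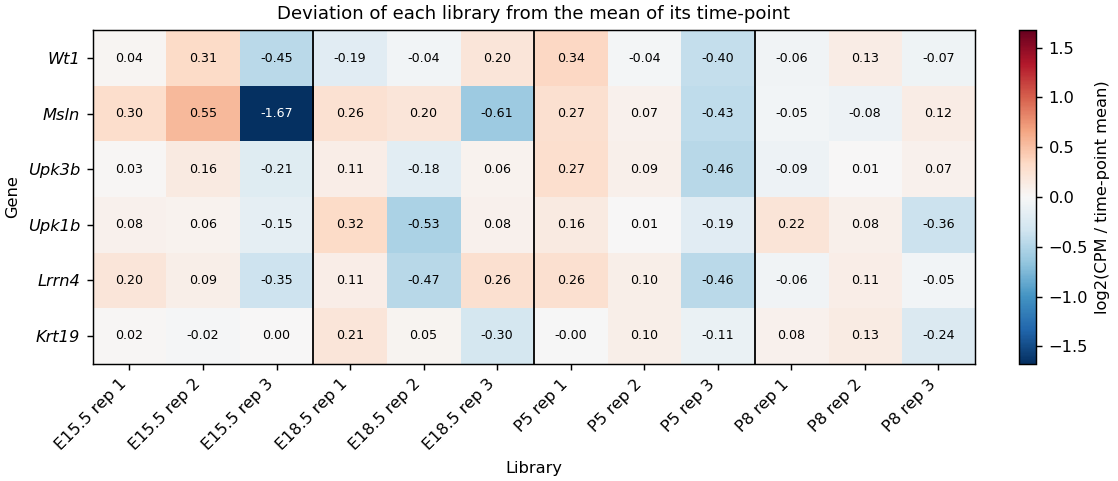
Log2 ratio of the CPM of each of the 6 mesothelial genes in each library to the mean of its time-point. P5 replicate 3 is negative in all 6 rows, and *Msln* in E15.5 replicate 3 is farthest from its mean, at -1.67.

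The genes whose levels ran most nearly with each of the 6 over the 12 libraries were found by Pearson's r of log2 values among all genes with a mean of at least 1 CPM. For *Wt1* these were *Gata6* (r = 0.972), for a transcription factor of endoderm and mesoderm, *Crb2* (0.966), for a polarity protein, and *Sfrp2* (0.961), for a secreted inhibitor of Wnt ligands. For *Lrrn4* they were *Cpz* (0.981), for a carboxypeptidase, *Aebp1* (0.980) and the mesothelial gene *Gpm6a* (0.977), and for *Upk3b* the first 2 of these (0.960 and 0.956) and *Tmem151a* (0.955). *Msln* had *Igtp* (0.994), for a GTPase induced by interferon, and *Tapbp* (0.994), for the peptide-loading protein tapasin. *Upk1b* had *Tnfaip2* (0.990), *Cul9* (0.990) and *Ecm1* (0.988), and *Krt19* had *Actn4* (0.973), *Aqp4* (0.968) and *Smpd3* (0.963). *Cpz* went from 6.04 to 2.55, 4.61 and 13.3 CPM.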

How the data were processed

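Whole lungs were snap frozen and sequenced as 101-nt paired-end reads. The authors aligned reads with TopHat2 2.1.1 and Bowtie2 2.3.4 to mm10 and counted reads per Gencode gene with HTSeq 0.10.0, and they deposited the raw counts of expressed genes. Whether counting used strand is not given in the sources used here. The deposited CPM values divide counts by total mapped reads, so a CPM depends on reads outside the tested genes. Of these values, 100% gave whole reads within 0.01, and the 16152 rows of the count table equalled them. The deposited splicing table, of inclusion levels per event, was not used.

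From the counts, one edgeR 4.0.16 quasi-likelihood fit (R 4.3.3, TMM) of 12 libraries gave each contrast, with Benjamini-Hochberg adjustment over 15994 genes, and was tested on simulated data. Depth was 41337443 counts or more per library. The SE of each change covers both counting error and the spread between replicates of a time-point, estimated over all 12 libraries. Listed genes were named when past both cutoffs, at most 4 per list and comparison by fold change, and the rest were named after their values were seen. For each of the 6 genes, the 3 most alike were taken, of which 1 is not reported here. The 6 genes, the lists and the tests were chosen with earlier results of these data known. DESeq2 1.42.0, other scalings, filters, samples and a replicate block were tried as alternatives.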

Additional observations from a re-analysis of the deposited data

Results flagged for a closer look

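The change from P5 to P8 differed from that from E15.5 to E18.5 by the contrast of the 2 intervals in 5 of the 6 genes, each in the positive direction. Of all genes tested, 12.9% did so in this direction and 26.3% in either direction. The difference was 2.97 for *Wt1*, 2.55 for *Upk3b*, 1.84 for *Upk1b*, 3.23 for *Lrrn4* and 0.90 for *Krt19* on the log2 scale. For the first 4 of these, all 3 E18.5 libraries lay below all 3 E15.5 libraries and all 3 P8 libraries above all 3 P5 libraries, while *Krt19* overlapped between the embryonic time-points. Taken singly, the first order was shown by 19.8% and the second by 20.8% of all genes, and the share with both was not computed. With E15.5 replicates 1 and 2 left out, which leaves a lone E15.5 library, the 5 differences were 2.54, 2.36, 1.71, 2.89 and 0.91. With P8 replicates 1 and 2 left out, which leaves a lone P8 library, the first 4 were 2.88, 2.60, 1.45 and 3.15, and that of *Krt19* was 0.63. Litter and time-point cannot be told apart in any of these values.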

How the results depend on the processing

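Over the alternatives run, 584 of 600 checks of single genes kept their direction and side of the threshold, 9 lost and 4 gained the call, and 3 changed sign. The signs that changed were those of *Msln* from E15.5 to E18.5 (-0.063 without E15.5 replicate 3, up to 0.69 with other single libraries out), of *Krt19* from E18.5 to P5 (-0.023 without E18.5 replicate 3, up to 0.24) and of the difference for *Msln* (-0.37 without E15.5 replicates 1 and 2), none of them called. By the FDR alone, 4 genes were called in the first interval, before birth, and 5 across birth, where 21.5% and 71.1% of all genes were. Without the E15.5 libraries with heart RNA, the falls of *Wt1* and *Lrrn4* from E15.5 to E18.5 lost the call, while *Msln* was called in the other direction, higher. Without the P8 libraries with thymus and fat RNA, *Msln*, *Upk1b* and *Krt19* lost the call from P5 to P8. Both settings, and a fit of the whole reads of the CPM table, were chosen after seeing the data. With each library left out in turn, the genes called numbered 1 to 3, 2 to 3, 5 to 6 and 5 to 5 in the 4 comparisons in order of time, the last being E15.5 to P8, and 5 to 6 for the difference. *Upk3b* was called from E15.5 to E18.5 without E15.5 replicate 3 (log2 fold change -1.02). *Msln* passed for the difference without E15.5 replicate 3 (1.71) and with the whole reads of the CPM table (1.25). Replicate numbers came from no stated pairing, and same-numbered libraries deviated with r = -0.298 to 0.271 (4 of 18 pairs over 0.1), so they share only a number. With the replicate block, 2, 3, 6 and 5 of the 6 genes were called, as without it, and calls over all genes went from 487, 4289, 474 and 5174 to 456, 4308, 414 and 5171. The fit of the whole reads of the CPM table tested 32602 genes, and that of only the E15.5 and E18.5 libraries 14671. The main fit tested 15994, so the counts of these fits below are out of other totals. With single libraries left out, calls over all genes were 284 to 572 from E15.5 to E18.5 and 198 to 682 from P5 to P8. They were 179 and 51 in these intervals without E15.5 or P8 replicates 1 and 2, 737 and 769 with the whole reads of the CPM table, and 291 from E15.5 to E18.5 with only the libraries compared. For the difference they went from 4213 to 2176 and 1484 without these E15.5 and P8 libraries.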

Other observations

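Of the 15994 genes tested, 34 (0.213%) fell past both cutoffs between the embryonic time-points and rose past both between the postnatal ones. Among them were *Wt1*, *Lrrn4*, *Bnc1* and *Pkhd1l1*, and also the following, named after their values were seen. *Gata4*, for a transcription factor of heart and coelomic lining, went from 19.6 to 3.89 CPM and from 1.97 to 5.85 CPM. *Tbx18*, for a T-box factor of the epicardium, went from 4.02 to 0.676 and from 0.729 to 2.56 CPM, and *Wnt2b*, for a Wnt ligand, from 19.7 to 9.79 and from 1.90 to 4.19 CPM. In E15.5 replicate 3, the E15.5 library without the excess of heart RNA, *Gata4* was at 8.59, *Tbx18* at 1.97 and *Wnt2b* at 19.7 CPM. *Crb2* and *Cpz*, which ran with *Wt1* and with *Lrrn4* and *Upk3b*, were also in this group. So were the liver genes *Ahsg*, *Afp* and *Ttr*. Leaving out single libraries gave 14 to 60 such genes, of which 12 to 29 were among the 34. Without both P8 libraries with thymus and fat RNA there were 6, all among the 34, with *Wt1* and *Lrrn4* in them. Without both E15.5 libraries with heart RNA there were 4, with 2 among the 34 and none of the 6 mesothelial genes.

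With the mean of each time-point removed, the gene whose deviations ran most nearly with the mean standardized deviation of the 6 genes was *Grina* (r = 0.983 over the 12 libraries). It was followed by *Klhdc8a* (0.895) and *Fdft1* (0.893). These are the highest of all genes with a mean of at least 1 CPM and so were chosen for their r.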
